A study of Mus musculus with 6 samples.

Results

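Foxj1 and 6 genes of the Rfx family, Rfx1, Rfx2, Rfx3, Rfx4, Rfx5 and Rfx7, were followed in mouse radial glial cells that were turning into multiciliated ependymal cells with or without Edf1. The 7 genes were taken by symbol from the 22851 gene symbols of the deposited counts, and all 7 passed the filter on low counts. Foxj1 encodes a forkhead transcription factor that switches on the genes of motile cilia. The Rfx genes encode winged-helix factors that bind a DNA element called the X-box, found near many genes needed to build cilia of any kind. In the ependyma, the ciliated lining of the brain ventricles, Foxj1 is also a standard marker of the mature cell.

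The radial glial cells came from the brains of C57BL/6J mice at postnatal day 0 to 3 and were grown in medium with serum. They were then kept for 6 days in medium without serum to induce ciliated ependymal cells, and RNA was sequenced. The WT group and the Edf1 knockout group, whose mice were made by genome editing with Cas9, have 3 libraries each, called biological replicates by the submitters. The number of animals or cultures behind a library is not given in the sources used here, nor is the edited site or the number of founder lines. The Edf1 protein is known for bridging transcription factors to the basal machinery and for binding collided ribosomes.

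Total counts were 13071766 to 28087006 per library. Edf1 itself had 80.2 to 85.9 CPM (library-scaled counts) in the WT libraries and 9.84 to 13.2 in the knockout libraries. Over all genes, 26.9% of 14243 tested genes passed an adjusted p-value of 0.05, 14.2% lower and 12.7% higher in the knockout. The first principal component of log2 CPM separated the genotypes, and the second set WT replicate 2, which has the smallest total count, apart from the other WT libraries. Ependymal markers were present in every library, and 9 of 12, Foxj1 among them, were called lower in the knockout. The summed ependymal list overlapped, at 7811 to 8554 CPM in WT libraries and 7972 to 8205 in knockout libraries. Most of that sum was Vim, an intermediate filament gene shared with other glia, at 6019 to 6651 and 6753 to 7012 CPM. Of the marker lists for other cells, 10 of 12 microglial genes were called lower and 8 of 8 tested fibroblast and mural genes higher. The microglial list summed to between 2110 and 2267 CPM over the WT libraries and between 1416 and 1459 over those of the knockout. The fibroblast and mural list summed to 841 to 902 CPM in WT libraries and 1046 to 1162 in knockout libraries. Among radial glial and astrocyte genes 2 of 8 were called lower and 3 higher, among neuronal genes 2 of 7 lower, among oligodendrocyte lineage genes 1 of 6 higher and among choroid plexus genes 1 of 5 higher. The endothelial list summed to 46.2 to 52.7 CPM in WT libraries and 129 to 133 in knockout libraries. Of its 2 tested genes, Kdr was higher (1.73) and Flt1 lower (-1.58), while Cldn5 had at most 3 counts in every library. The pituitary list summed to 17.2 to 20.4 CPM in WT libraries and 29.0 to 35.5 in knockout libraries, with 3 of 4 tested genes called higher and Lhb lower. In bulk RNA, fewer cells of a type and less RNA per cell cannot be told apart, and the part of these other cells in the results on Foxj1 and the Rfx genes was not tested.

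The promoters of Rfx1, Rfx2 and Rfx3 share a short word. RefSeq promoters of build GRCm38.p6, which run from 250 bases before to 50 after a gene's start, were on hand for 6 of the 7 genes (Rfx1, Rfx2, Rfx3, Rfx4, Rfx5 and Rfx7). A word of AACNGTT followed directly by GCC, picked after these promoters had been read, occurs in those of Rfx1, Rfx2 and Rfx3, and in 0.134% of all 32851 promoters when both strands are searched. Its last 6 letters are the RFX half-site GTTGCC, and its first 7, AACNGTT, which resemble the element bound by Myb proteins, occur in 4.45% of promoters. The 3 matches are given on the strand of each gene, 5′ to 3′, with the word in capitals.
Rfx1, chr8:84066823-84066852, plus strand: ggtgggtagcAACAGTTGCCccggtgaggg
Rfx2, chr17:56831109-56831138, minus strand: gcagcttggtAACCGTTGCCgggcgcaacg
Rfx3, chr19:28011120-28011149, minus strand: gagttatagcAACCGTTGCCttgtgaatca
The word begins 3 bases before the start of Rfx1, 120 bases before that of Rfx2 and at base 28 of the Rfx3 transcript. The Rfx2 match is shown again inside the 250 bases before the start, because it is the one that lies wholly upstream.
Rfx2, chr17:56831009-56831258, minus strand: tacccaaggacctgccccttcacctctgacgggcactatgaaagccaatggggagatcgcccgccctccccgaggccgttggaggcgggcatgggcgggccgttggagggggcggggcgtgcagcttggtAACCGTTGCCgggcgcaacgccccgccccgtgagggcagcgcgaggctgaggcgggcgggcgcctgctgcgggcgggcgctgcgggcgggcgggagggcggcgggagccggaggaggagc
Neither the full X-box palindrome (GTTNCC, 0 to 3 bases, then GGNAAC) nor the forkhead word TGTTTAC was found in the promoters of the 6 Rfx genes. They occur in 0.804% and 3.65% of all promoters. A match is a string of letters and not a measured binding site.

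Foxj1 fell to about 66.4% of its WT level. The gene lies on chromosome 11 from 116330704 to 116335399 on the minus strand (GRCm38, GENCODE M21). It had 767, 838 and 759 CPM in WT replicates 1, 2 and 3 and 517, 517 and 535 CPM in knockout replicates 1, 2 and 3. Every knockout library was below every WT library, and the knockout libraries lay closer together than the WT libraries. The log2 fold change was -0.59 (SE 0.049, 95% interval -0.70 to -0.48) and the adjusted p-value was 3.41e-06 by edgeR's quasi-likelihood test. Over all settings tried the adjusted p-value of Foxj1 ran from 1.36e-22 to 0.000132 by edgeR, DESeq2 or limma. Among the 14243 tested genes, 737 (5.17%) had a more negative log2 fold change.

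Of the Rfx genes, Rfx1 and Rfx2 fell, by less than Foxj1 in their fitted values. Rfx2, a factor that works with Foxj1 on motile cilia genes, lies on chromosome 17 from 56775897 to 56831013. The WT libraries held 52.3, 57.1 and 53.1 CPM of Rfx2 and the knockout libraries 47.7, 45.3 and 44.8 CPM. The groups did not overlap, and the closest pair, WT replicate 1 and knockout replicate 1, was 4.62 CPM apart. The log2 fold change of Rfx2 was -0.24 (SE 0.061, adjusted p-value 0.0128 by edgeR).

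Rfx1, a broadly expressed member of the family, lies on chromosome 8 from 84066834 to 84096992. Its CPM was 42.0, 43.4 and 43.6 in WT replicates 1, 2 and 3 and 38.1, 32.9 and 37.0 in knockout replicates 1, 2 and 3. Again all knockout libraries were below all WT libraries, and knockout replicate 2 was the lowest. The log2 fold change of Rfx1 was -0.25 (SE 0.071, adjusted p-value 0.0186 by edgeR). Without knockout replicate 2 the log2 fold change of Rfx1 was -0.20 (adjusted p-value 0.0843 by edgeR). That of Rfx2 was -0.23 without knockout replicate 2 (SE 0.0738, adjusted p-value 0.0557) and -0.21 without knockout replicate 3 (SE 0.0745, adjusted p-value 0.0703 by edgeR). Over all settings tried, the adjusted p-values ran from 0.000775 to 0.0843 for Rfx1 and from 0.000990 to 0.0703 for Rfx2 by edgeR, DESeq2 or limma.

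**Figure D1:**
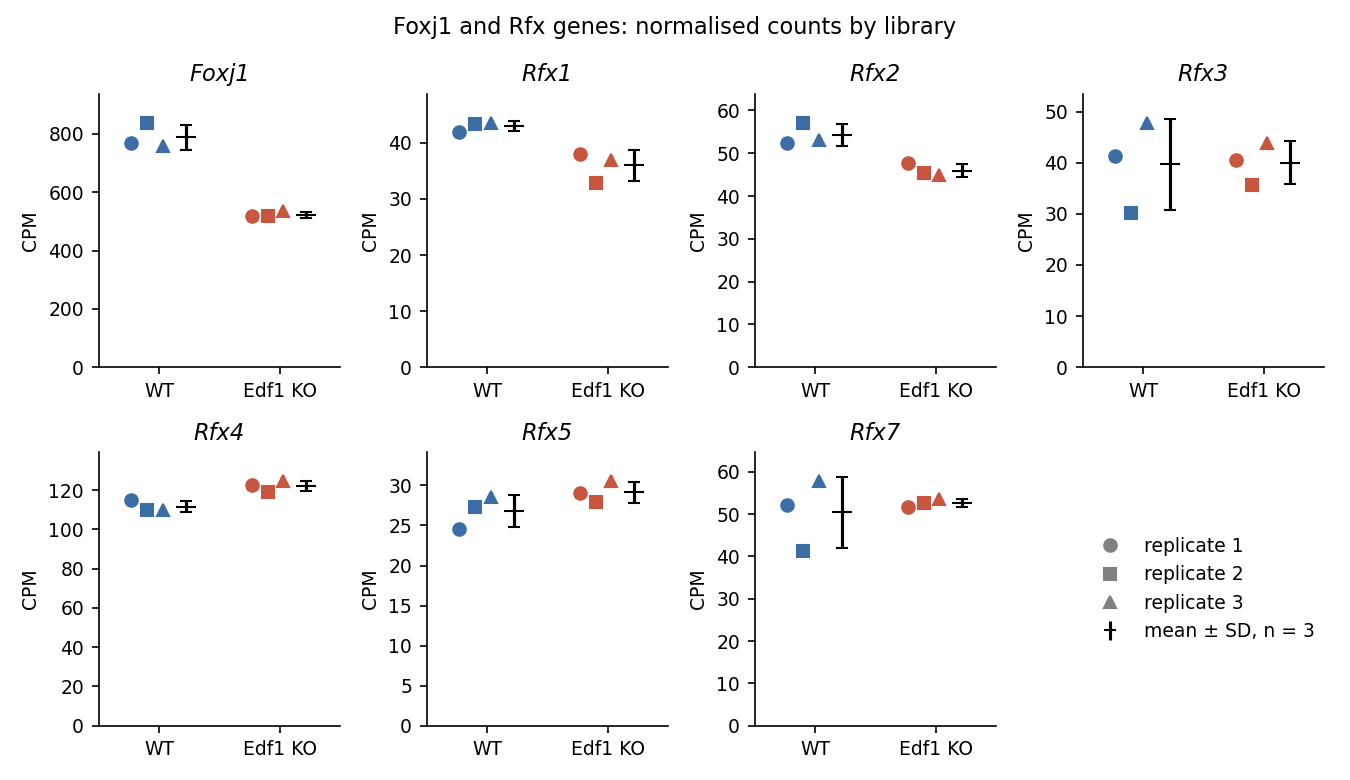
CPM of Foxj1 and the 6 Rfx genes in each library, with replicates 1 to 3 as circles, squares and triangles, and black bars for the mean ± SD of 3 libraries per genotype. Foxj1, Rfx1 and Rfx2 sit lower in all knockout libraries, Rfx4 sits slightly higher, and Rfx3 and Rfx7 are lowest in WT replicate 2.

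Rfx3, which builds cilia on many cell types and acts beside Rfx2, was not called. It lies on chromosome 19 from 27761721 to 28011166 and had 41.2, 30.1 and 47.8 CPM in WT against 40.6, 35.6 and 43.8 CPM in the knockout. The groups overlapped, and both the highest and the lowest library were WT. The log2 fold change was 0.0020 with a 95% interval of -0.28 to 0.29 (SE 0.13, adjusted p-value 0.992 by edgeR), a range that holds the fall seen for Rfx2 and no fall as large as that of Foxj1. Its direction was negative, at -0.14, without WT replicate 2.

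Rfx4, the member tied to neural progenitors and to formation of the brain midline, had a slightly higher value in the knockout without passing the test. It lies on chromosome 10 from 84756062 to 84906538 and had 115, 110 and 110 CPM in WT, against 123, 119 and 124 CPM without Edf1. The groups did not overlap. The log2 fold change was 0.13 (SE 0.051, 95% interval 0.017 to 0.24, adjusted p-value 0.0834 by edgeR). When trends with GC content and transcript length were removed from every library, the adjusted p-value of Rfx4 was 0.0291 at 0.14, and over all settings tried it ran from 0.0291 to 0.223 by edgeR, DESeq2 or limma.

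Rfx5 and Rfx7, the members known outside cilia biology, were not called. Rfx5, the DNA-binding subunit of the complex that turns on MHC class II genes, had 24.6, 27.3 and 28.5 CPM in WT, against 29.1, 27.9 and 30.5 CPM without Edf1, with overlapping groups. Its log2 fold change was 0.13 (95% interval -0.046 to 0.30, adjusted p-value 0.267 by edgeR). The gene lies on chromosome 3 from 94954075 to 94961561, and 26.8% of its exonic bases are also exonic in B230398E01Rik on the opposite strand, so its count is uncertain if strand was not used in counting.

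Rfx7, which acts with p53 in other cells, lies on chromosome 9 from 72532240 to 72622937. Its WT libraries held 52.2, 41.2 and 57.7 CPM, and its knockout libraries 51.6, 52.6 and 53.6 CPM. The WT libraries spanned the knockout libraries on both sides. The log2 fold change was 0.055 (95% interval -0.15 to 0.26, adjusted p-value 0.714 by edgeR), and it was -0.058 without WT replicate 2. For Rfx7, 6.63% of exonic bases overlap Gm27232 and Gm27241 on the opposite strand. The other 5 genes had at most 0.653% of such overlap, and at most 0.740% of the 31-base stretches of their transcripts occur in another gene on either strand.

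In all, 3 of the 7 genes were called lower and 0 higher in the knockout, where 14.2% and 12.7% of all tested genes were. At an unadjusted p under 0.05 the edgeR test had 1 higher gene, Rfx4, and DESeq2 and limma called 0 higher. The libraries of the genotypes did not overlap for 4 of the 7, against 43.3% of all tested genes. The plot of fold changes shows how far each value moves with the settings.

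**Figure D2:**
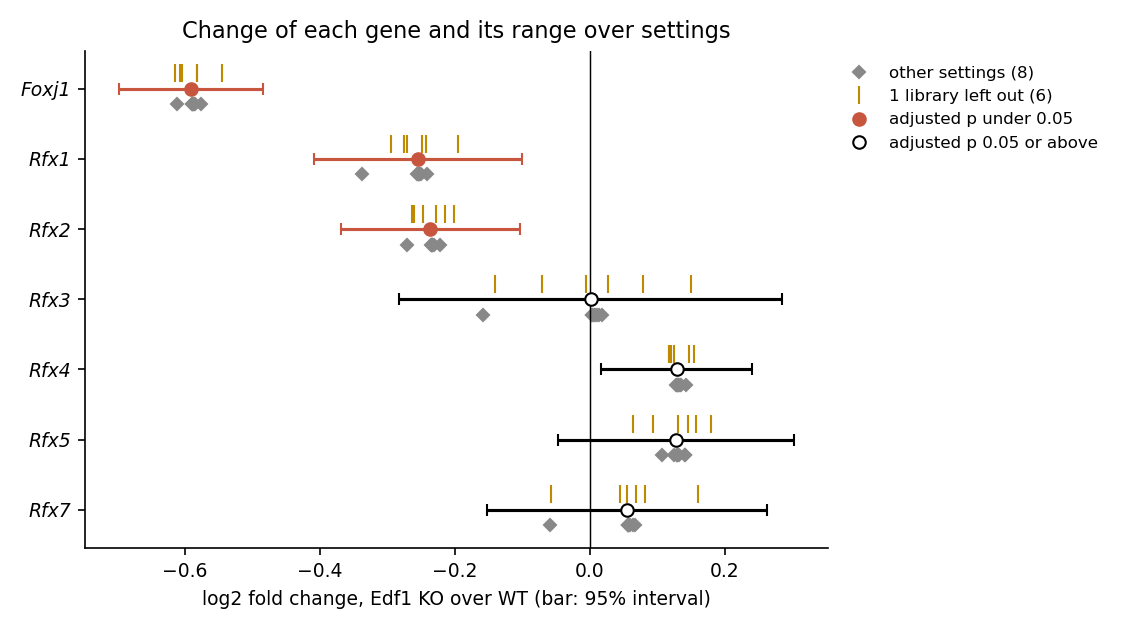
Log2 fold change of each gene, Edf1 knockout over WT, as a point with its 95% interval, with the values of 8 other settings (diamonds) and of 6 fits that each leave out 1 library (ticks). Foxj1 stays between -0.61 and -0.54, Rfx1 and Rfx2 stay below 0, and the ticks of Rfx3 run from -0.14 to 0.15.

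To ask whether Foxj1 moved by a different amount than the Rfx genes, the ratio of Foxj1 to each Rfx gene was taken within each library. The ratios were computed from log2 CPM with a prior count of 2. For Rfx2 the ratio was 14.6, 14.6 and 14.3 in WT replicates 1, 2 and 3 and 10.8, 11.4 and 11.9 in knockout replicates 1, 2 and 3. The knockout ratios all lay below the WT ratios, with a difference of -0.35 on the log2 scale. For Rfx4 the ratio was 6.67, 7.63 and 6.89 in WT, against 4.21, 4.34 and 4.30 in the knockout, a difference of -0.72. The differences for Rfx1, Rfx3, Rfx5 and Rfx7 were -0.33, -0.62, -0.71 and -0.67. The groups did not overlap in any of the 6 ratios, which all share Foxj1, and Foxj1 alone also separates the genotypes, as do 43.3% of all tested genes. Each ratio had a two-sided exact permutation p of 0.1 (adjusted p 0.1 over the 6 ratios), the smallest that 3 libraries against 3 allow, so the design cannot bring this test under 0.05.

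Levels were compared between genes only per transcript length, as TPM (counts divided by transcript length and scaled per library) with the longest coding transcript of each gene. Foxj1 stood at 725 ± 12.2 TPM in WT (SD, n = 3), rank 150 of 22165 genes with a length, and at 501 ± 11.2 TPM in the knockout, rank 245. Rfx4 was the most abundant Rfx gene, with 76.3 ± 4.17 TPM in WT and 86.9 ± 2.44 in the knockout. Rfx2 followed with 39.0 ± 0.524 and 34.5 ± 1.32 TPM, and Rfx1 with 24.9 ± 0.908 and 21.7 ± 1.80 TPM. With these lengths, no libraries overlapped between these neighbours in that order in either genotype.

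The order below Rfx4 depends on the transcript lengths used, and below Rfx1 it is also less certain with the longest ones. Rfx7 had 15.3 ± 3.06 TPM and Rfx5 14.6 ± 1.17 TPM in WT, with overlapping libraries. Rfx3 was last at 10.5 ± 2.69 TPM. Rfx3 has a longest coding transcript of 9146 bases and a median one of 2743, and with median lengths its WT level was 22.3 ± 5.56 TPM, above Rfx1 (16.8 ± 0.501), Rfx5 (17.5 ± 1.36) and Rfx7 (16.5 ± 3.18). Rfx2 was at 25.3 ± 0.475 TPM in WT with median lengths. In the knockout, median lengths put Rfx3 at 23.2 ± 2.50 TPM, above Rfx2 at 22.2 ± 0.830. The TPM of Rfx3 and its place beside Rfx2 therefore depend on which transcript is counted, which gene-level counts do not show.

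The summed TPM of the 6 Rfx genes was 184, 169 and 189 in WT, against 191, 179 and 191 in the knockout, with overlapping groups. The shares of that sum are tied to each other, since they add up to the whole, and were not tested. They rest on the longest coding transcript of each gene and were not computed with median lengths. Rfx4 took 43.5%, 42.5% and 40.8% in WT, against 46.0%, 46.9% and 46.4% in the knockout. Rfx2 took 20.9%, 23.3% and 20.8% in WT, against 18.9%, 18.8% and 17.6% in the knockout. Rfx1 took 13.8% ± 0.388 and 11.6% ± 0.568 (SD, n = 3). Rfx5 took 7.39% to 8.41% in WT and 8.65% to 9.04% in the knockout. The shares of these 4 genes did not overlap between the genotypes, and those of Rfx3 and Rfx7 did. For single genes the share without overlap was 43.3% of all tested genes.

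**Figure D3:**
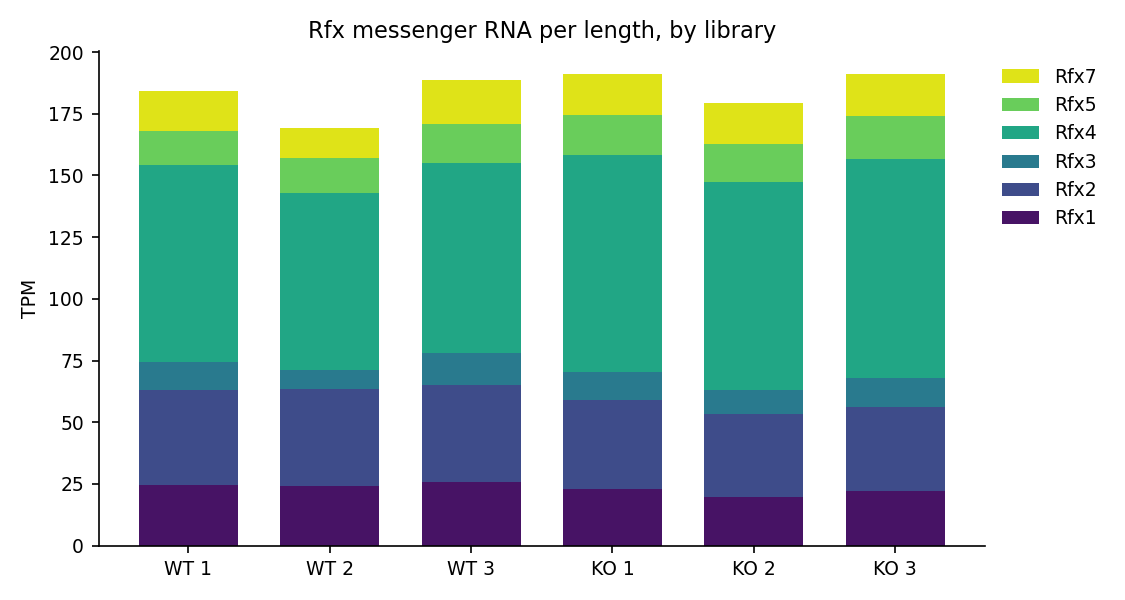
TPM of the 6 Rfx genes stacked by library, using the longest coding transcript of each gene. The sums overlap between genotypes (169 to 189 in WT, 179 to 191 in the knockout), while the Rfx4 share is larger and the Rfx2 and Rfx1 shares are smaller in the knockout libraries.

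The remaining relatives were checked beside these genes. Rfx6, known for its part in making pancreatic islet cells, had 0 counts in every library. Rfx8 had 0.892 ± 0.160 CPM in WT, against 0.510 ± 0.0953 CPM in the knockout, 8 to 19 counts per library, and was not called (adjusted p-value 0.118 by edgeR). The forkhead paralogs Foxj2 and Foxj3 were also not called, at 0.30 (adjusted p-value 0.0685) and 0.14 (adjusted p-value 0.179 by edgeR). Foxj2 had 13.4 CPM in WT replicate 2 and 18.5 to 22.1 CPM in the other libraries, with no overlap between genotypes, and its adjusted p-value ran from 0.0456 to 0.187 over the settings by edgeR, DESeq2 or limma.

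WT replicate 2 affects some members more than others. In log2 CPM relative to the WT mean, it stood at -0.37 for Rfx3 and -0.28 for Rfx7, and at 0.090 for Foxj1, 0.077 for Rfx2 and -0.024 for Rfx4. Rfx3 and Rfx7 have the longest coding transcripts of the 7 (9146 and 7988 bases) and the lowest GC content (40.2% and 43.9%). Over 1120 genes with both at least 4755 bases and at most 45.4% GC content, the same library's median was -0.15, against 0.054 for the 7522 genes with neither. With a correction for length and GC content the log2 fold changes of Rfx3 and Rfx7 were -0.16 and -0.058, neither past the threshold.

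**Figure D4:**
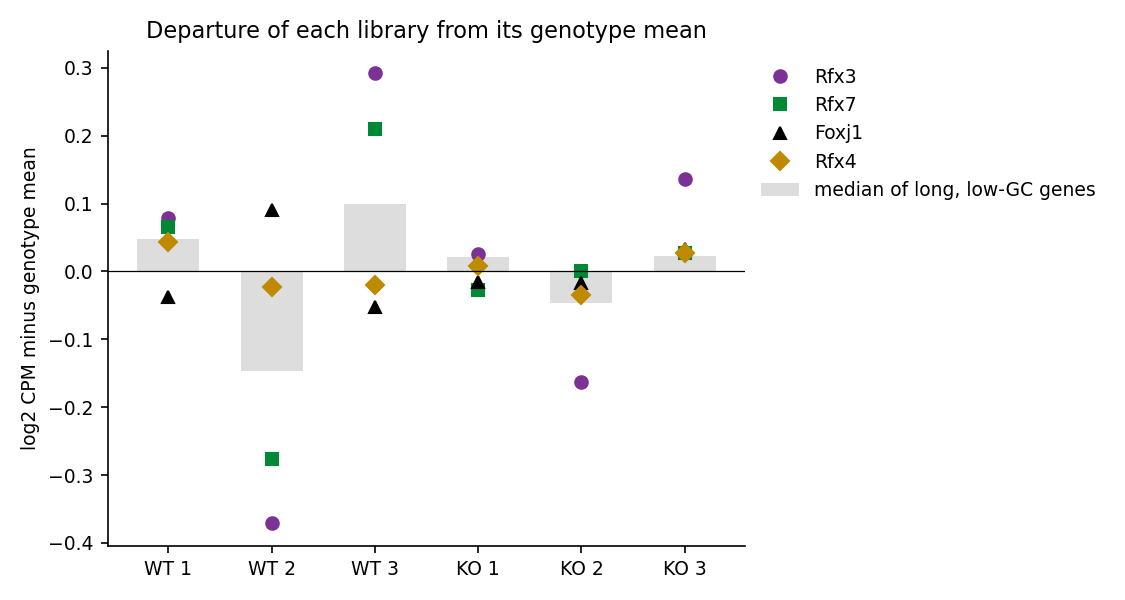
Log2 CPM of Rfx3, Rfx7, Foxj1 and Rfx4 in each library minus the mean of its genotype, with gray bars for the median of 1120 long genes of low GC content. In WT replicate 2 Rfx3 (-0.37) and Rfx7 (-0.28) lie below the bar at -0.15, while Foxj1 (0.090) lies above 0.

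Of 10 listed regulators of the multiciliation programme, Foxn4, Ccno, Mcidas, Myb, Trp73 and E2f4 fell. The first 5 of these had fitted values below that of Foxj1. In multiciliated cells Gmnc starts the programme, Mcidas with E2f4 or E2f5 and Tfdp1 carries it on, and Foxj1 is switched on downstream. Of the 10 genes, 6 were called lower (60%) and 0 higher, against 14.2% and 12.7% of all tested genes. The median log2 fold change was -0.64, against 0.0029 over all tested genes. At an unadjusted p under 0.05 there was 1 higher gene, Gmnn, which was also called with the GC and length correction by edgeR, and DESeq2 and limma called 0 higher. This list and those below were written with earlier results of these data known. Foxn4 had 13.8, 15.5 and 15.1 CPM in WT, against 6.27, 5.07 and 6.37 CPM in the knockout. The groups were far apart, and the fold change was -1.31 (log2, adjusted p-value 6.39e-06 by edgeR).

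Ccno, Mcidas, Myb and Trp73 had log2 fold changes of -1.25, -1.13, -1.13 and -1.06, each with every knockout library below every WT library. E2f4 fell from 31.4 ± 0.431 to 27.1 ± 0.0893 CPM (-0.21, adjusted p-value 0.0364 by edgeR, 0.0312 to 0.104 over the settings). Gmnc (-0.18), E2f5 (0.045), Tfdp1 (0.042) and the Gmnc antagonist Gmnn (0.19) were not called. Gmnc was called lower without WT replicate 2 (-0.22, adjusted p-value 0.0195) and with the GC and length correction (-0.28, adjusted p-value 0.00266 by edgeR), and its adjusted p-value ran up to 0.314 over the settings.

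Genes of the motile cilium, which Foxj1 is known to drive, were lower almost throughout. Of 50 genes, 46 were called lower (92.0%) and 0 higher, against 14.2% and 12.7% of all tested genes. The median log2 fold change was -0.72. Higher genes were also 0 at an unadjusted p under 0.05 by edgeR and by DESeq2 and limma. In 31 of the 50 the log2 fold change was below that of Foxj1 itself. Dnah11, an outer dynein arm motor, had 121, 108 and 121 CPM in WT, against 37.1, 32.2 and 35.6 CPM without Edf1, and its log2 fold change was -1.74. Spag17, of the central pair, and Ttc29, an axonemal dynein factor, had -1.78 and -1.58. In Spag17, 15.7% of exonic bases are shared with opposite-strand genes.

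At the other end of the motile list, Tekt2 had 4.56 to 6.68 CPM in WT, against 5.40 to 6.09 CPM in the knockout (0.046, adjusted p-value 0.865 by edgeR), with 20.8% of its exonic bases shared with Gm12945 on the opposite strand. Ccdc114, a docking component of the outer dynein arm, and Cfap44 had values of -0.19 and -0.20 and were not called. Dnah7a was the remaining gene not called, at -0.28 with an adjusted p-value of 0.0535 by edgeR.

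Genes of general ciliary assembly, a class rich in Rfx targets, showed smaller changes. Of 46 genes, which cover intraflagellar transport, the BBSome and the transition zone, 32 were called lower (69.6%) and 0 higher. Over all tested genes 14.2% were called lower and 12.7% higher. At an unadjusted p under 0.05 by edgeR, and by DESeq2 and limma, 0 of the 46 were higher. The median log2 fold change was -0.30, and 3 genes lay below Foxj1. Wdr60, an intermediate chain of the dynein-2 motor, was lowest, with 89.5, 90.9 and 95.7 CPM in WT, against 37.4, 36.8 and 40.5 CPM without Edf1 (-1.26, adjusted p-value 1.04e-07 by edgeR). Nphp4 of the transition zone and Ift22 of the transport train had -0.64 and -0.60. The highest values were those of Bbs12 (0.18), Ttc21b (0.022) and Kif17 (-0.0023), none of them called.

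**Figure D5:**
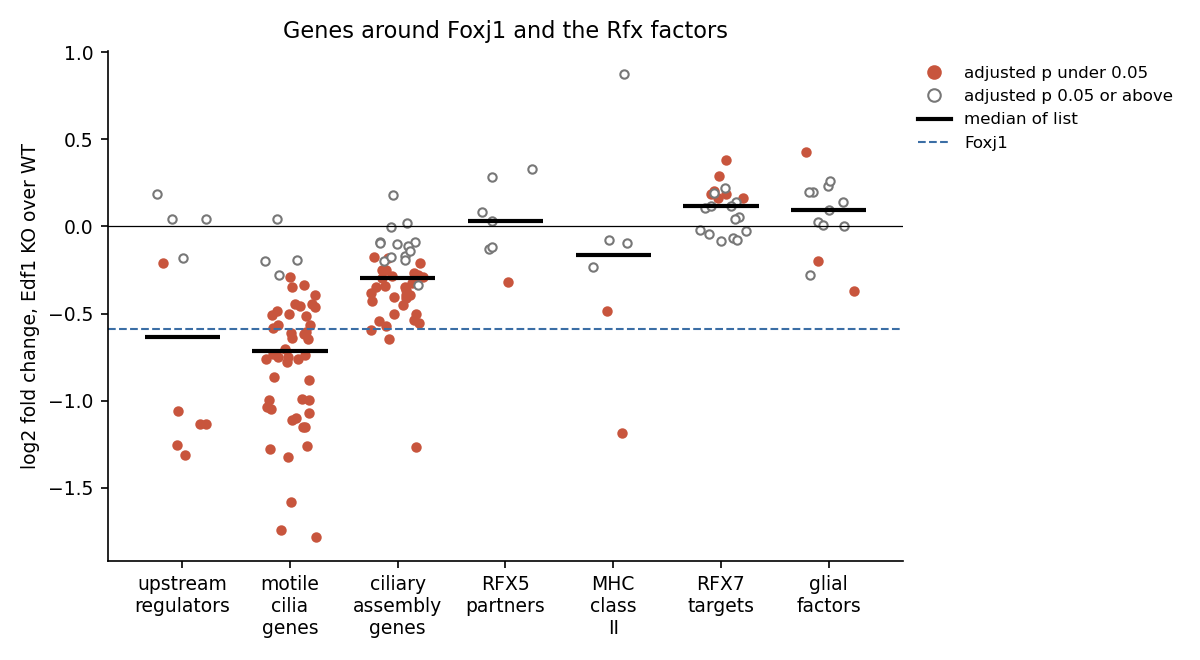
Log2 fold changes, Edf1 knockout over WT, of genes in 7 lists around Foxj1 and the Rfx factors, filled where the adjusted p-value is under 0.05, with the list median as a bar and the value of Foxj1 (-0.59) as a dashed line. Most motile cilia genes lie below the dashed line (31 of 50), most ciliary assembly genes above it (3 of 46 below).

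The promoter words were also set against the fold changes. Of 132 tested genes with the X-box palindrome in a promoter, 29.5% were called lower and 6.82% higher, with a median log2 fold change of -0.098. Over the 11342 tested genes with a RefSeq promoter, 14.4% were called lower and 12.3% higher, with a median of 0.0015. Of the 365 tested genes with the forkhead word TGTTTAC, 67 were called lower (18.4%) and 40 higher. For the word shared by Rfx1, Rfx2 and Rfx3 there were 19 tested genes, 7 called lower and 1 higher, and that count includes Rfx1 and Rfx2 themselves. The palindrome was in the promoter of 2 of 43 motile cilia genes, Ccdc151 and Pifo, and of 4 of 40 ciliary assembly genes, Ift57, Bbs7, Mks1 and Tctn1.

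Among 3 listed ependymal genes tied to Foxj1, Ank3, the gene for the membrane anchor ankyrin G, fell from 15.7 ± 1.08 to 11.3 ± 1.52 CPM (-0.47, adjusted p-value 0.00682 by edgeR). That call is 33.3% of the list, against 14.2% of all tested genes called lower. The cytoskeletal linker gene Ezr (0.024) and the cilium gene Cys1 (0.069) were not called.

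Among the partners of Rfx5, 1 passed the test. Of 7 partner genes, Rfxap, an obligate subunit of the RFX5 complex, was called lower, which is 14.3%, against 14.2% of all tested genes. With every library kept and no replicate block, 0 were called higher by edgeR, DESeq2 or limma, also at an unadjusted p under 0.05 by edgeR. The median log2 fold change was 0.030. Rfxap had 34.9, 37.8 and 28.7 CPM in WT, against 26.6, 28.2 and 26.5 CPM without Edf1 (-0.32, adjusted p-value 0.0280 by edgeR), and its call was lost when any knockout library or WT replicate 1 was left out. Rfxank (-0.13, with 33.8% of its exonic bases shared with Nr2c2ap on the opposite strand), Nfyc (-0.12), Nfya (0.030), Nfyb (0.084), Creb1 (0.29) and the class II transactivator gene Ciita (0.33) were not called. Creb1, a factor that binds beside the RFX5 complex, was called higher with a replicate block (0.32, adjusted p-value 0.0251) and without WT replicate 1 (0.45, adjusted p-value 0.0499 by edgeR).

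Of 9 MHC class II genes, targets of that complex, 6 had enough counts and 2 were called lower (33.3% of the 6, against 14.2% of all tested genes). H2-DMa fell from 7.90 ± 0.258 to 5.64 ± 0.411 CPM (-0.48, adjusted p-value 0.0127 by edgeR), and H2-Ob from 0.957 ± 0.294 to 0.455 ± 0.192 CPM (-1.19, adjusted p-value 0.0434 by edgeR). Cd74 (-0.23), H2-Ab1 (-0.097), H2-DMb1 (-0.075) and H2-Eb1 (0.88) were not called, and H2-Aa, H2-DMb2 and H2-Oa had too few counts for the test. H2-Ob had 6 to 31 counts per library with overlapping groups, and 10.4% of the exonic bases of H2-DMa are shared with Brd2 on the opposite strand. H2-Eb1 was the 1 gene higher at an unadjusted p under 0.05 by edgeR. The count of lower calls was 1 in each fit that left out a library other than WT replicate 2, and 1 by DESeq2. Microglia, which can carry these genes, had lower marker levels in the knockout as given above, and their part in these values was not tested.

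Some genes known as RFX7 targets in other cells rose. Of 21 genes, 7 were called higher (33.3%) and 0 lower, against 12.7% and 14.2% of all tested genes. The median log2 fold change was 0.12, and 0 were lower at an unadjusted p under 0.05 by edgeR or by DESeq2 and limma. Trp53inp1, a stress-response gene, had 52.6, 44.0 and 52.3 CPM in WT, against 67.4, 64.8 and 62.9 CPM without Edf1 (0.38, adjusted p-value 0.00182 by edgeR). Abat, which breaks down the transmitter GABA, had 0.29, and Pik3r3 had 0.22 and was not called. For Pik3r3, 24.3% of exonic bases are shared with Gm49337 on the same strand. The lowest values, of Ubald2 (-0.085), Sobp (-0.075) and Ddit4 (-0.066), were also not called. The count of higher genes fell to 3, 1 and 2 without knockout replicates 1, 2 and 3 and to 3 without WT replicate 1.

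Of 13 transcription factors of the ependymal and radial glial state, 15.4% were called lower and 7.69% higher, against 14.2% and 12.7% of all tested genes. The median log2 fold change was 0.093, and 3 of the 13 values were negative. At an unadjusted p under 0.05 by edgeR, 4 were higher and 2 lower. Six3, a factor needed for ependymal maturation, was called higher (0.43, adjusted p-value 0.00220 by edgeR), and Id1 (-0.37) and Id4 (-0.20) were called lower. Hes5 (-0.28), Hes1 (0.26) and Nfia (0.23) were not called. Leaving out any knockout library left 1 lower call, and leaving out knockout replicate 1 or WT replicate 3 gave 2 higher calls, as did scaling by library size alone, no filter on low counts, a replicate block and the GC and length correction.

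The genes whose profile over the 6 libraries was nearest to each factor were found by the root-mean-square difference of log2 CPM after centring each gene on its own mean. Nearest to Foxj1 were Spa17 (0.0177), Tbc1d31 (0.0188) and Tpgs2 (0.0220), with log2 fold changes of -0.60, -0.58 and -0.56. Nearest to Rfx2 were Id2 (0.0196), Zmat2 (0.0202) and Rmi1 (0.0214), and nearest to Rfx4 were Zkscan3 (0.0133), Polr1b (0.0137) and Zfr (0.0143). Among the profiles nearest to Rfx3, Ankrd26 was at 0.0371 and Mkrn3 at 0.0597, both farther away than the genes named for the other factors.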

How the data were processed

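Whole-number read counts per gene symbol were deposited by the authors for 3 WT and 3 Edf1 knockout libraries, 1 column each, with 0 rows that name no gene. The submitters' processing notes list FastQC 0.11.2, cutadapt 1.11, HISAT2 2.1.0 and GRCm38. The counting program, annotation and use of strand are not given in the sources used here. From the counts, CPM on TMM-scaled library sizes, log2 CPM with a prior count of 2, and TPM with GENCODE M21 transcript lengths (22165 symbols matched) were computed. The test was edgeR 4.0.16's quasi-likelihood test in R 4.3.3 on 14243 genes kept by filterByExpr, without covariates, with Benjamini-Hochberg adjustment and a threshold of 0.05. Standard errors are the fold change over the square root of F. On simulated counts for this comparison with 200 of 14243 genes changed 2-fold, 93.5% were recovered and 7.88% of calls were false. That setting differs from the data, where 26.9% of genes were called. Foxj1, Rfx1 and Rfx2 had knockout over WT folds of 0.664, 0.838 and 0.849, so the simulated recovery does not hold for changes of their size. Precision is limited by depth and by 3 libraries per genotype. P-values set the difference between the genotypes against the spread between these libraries.

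The members, the gene lists and the rule for named genes (the 7 genes, Edf1, all genes of lists of 10 or fewer, the 3 lowest and 3 highest of longer lists, and the 3 nearest profiles with mean log2 CPM of at least 1 for 4 of the factors) were chosen with earlier results of these data known. One gene that the rule names is not reported here. Genes named outside it are Dnah7a, the marker genes and the genes with a promoter word, chosen after their values were seen. The settings varied were DESeq2 size factors, library size alone, no filter, DESeq2 1.42.0 and limma 3.58.1 voom as tests, genes with a mean of at least 50 counts, a threshold of 0.01, a block for replicate number, fits without each library, and a correction for GC content and length by splines with 4 degrees of freedom. The same replicate numbers had correlations of deviations of 0.037 to 0.069, so no pairing was assumed.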

Additional observations from a re-analysis of the deposited data

How the results depend on the processing

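Foxj1 kept its direction and call in all settings, and Rfx5 its direction without a call. The 3833 changed genes became 2213 at a threshold of 0.01, where Rfx1 (-0.25) and Rfx2 (-0.24) are no longer called by construction. Without 1 library the count ran from 2658 to 4340, and the log2 fold changes ran from -0.61 to -0.54 for Foxj1, -0.29 to -0.20 for Rfx1, -0.26 to -0.20 for Rfx2, -0.14 to 0.15 for Rfx3, 0.12 to 0.15 for Rfx4, 0.064 to 0.18 for Rfx5 and -0.058 to 0.16 for Rfx7. Rfx1 (-0.20 without knockout replicate 2) and Rfx2 (-0.23 without knockout replicate 2, -0.21 without knockout replicate 3) lost their calls there. Rfx3 turned to -0.14 without WT replicate 2, -0.0048 without knockout replicate 1 and -0.070 without knockout replicate 3, and Rfx7 to -0.058 without WT replicate 2; the cause was not tested. The GC and length correction gave -0.16 for Rfx3, -0.058 for Rfx7 and a called 0.14 for Rfx4. With library size alone 49.7% of calls were lower, against 52.9%. A replicate block gave 4065 changed genes, altered no call of the 7 genes and left Foxj1 at -0.59. The same-numbered libraries shared only a number (correlations of 0.069, 0.060 and 0.037). The 6 ratios of Foxj1 to an Rfx gene kept their direction in all settings run.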
